A study of Drosophila melanogaster with 5 samples.

Results

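This account concerns 3 transcripts of the glycosylphosphatidylinositol (GPI) anchor and dolichol mannose pathway in larvae of the fruit fly Drosophila melanogaster. They were chosen by transcript identifier, as 3 of the 16637 transcripts with a value on the arrays, and together they carry 8 genes. FBtr0084974 carries PIG-P as its main reading frame and Tcs6 as an upstream frame. FBtr0071680 carries PIG-M with CG42379, CG42380 and CG42381 as upstream frames, and FBtr0073063 carries CG12016 with Dpm2 upstream. Each value therefore belongs to a whole shared transcript and cannot be divided among its genes. Of the pathway genes, PIG-P and PIG-M are main frames, whereas Dpm2 is the upstream frame of its transcript.

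A GPI anchor is a glycolipid that the endoplasmic reticulum attaches to the end of certain secreted proteins, so that they stay tethered to the outer face of the cell membrane. In mammals PIG-P is a subunit of the enzyme complex that begins the anchor by adding N-acetylglucosamine to phosphatidylinositol, and PIG-M is the enzyme that adds the anchor's first mannose. That mannose comes from dolichol phosphate mannose, a lipid-linked sugar made by a synthase of which DPM2, the mammalian counterpart of Dpm2, is a small membrane subunit. The same sugar donor serves N-glycan assembly and protein O-mannosylation, and in flies GPI-anchored proteins include the glypicans that shape morphogen gradients in larval tissues. The genes that share these transcripts work elsewhere: Tcs6 carries the synonym of Pcc1, a subunit of the KEOPS complex that modifies transfer RNA, and CG12016 carries the synonym of a nicotinamide riboside kinase, an enzyme of NAD synthesis. No role is given here for CG42379, CG42380 and CG42381.

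RNA of whole third-instar larvae of a w1118 wild-type stock (2 arrays, replicates 1 and 3) and of larvae transheterozygous for the alleles dDPa3 and dDPa4 (3 arrays, replicates 1 to 3) was carried on NimbleGen expression arrays as Cy3-labelled cDNA, with 1 sample on each array. Larvae of both genotypes grew on regular medium and received no treatment. The dDP gene encodes DP, which pairs with E2F proteins to form DNA-binding transcription factors, and the study asked how transcript levels differ when it is mutated. The labels name the mutant samples a knockdown in their titles and a transheterozygous mutant in their genotype field, and the genotype field was followed; they give neither the age of the larvae beyond the stage, nor how many were pooled. Values are robust multi-array average (RMA) summaries, taken to be log2, so that 1 unit is a doubling.

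The arrays were similar in their overall distribution, with medians from 11.64 to 11.69. Pairs of arrays of 1 genotype correlated across all transcripts at 0.957 to 0.986, and pairs across the genotypes at 0.927 to 0.965. The level of dDP was not analysed here, and 0 of 17 marker genes of larval tissues had a transcript named by the gene table used, so the labelled genotype and tissue could not be checked on these values. No label says that replicates came from separate collections of larvae, so the p-values rest on array-to-array spread that could be technical alone.

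The transcript of PIG-P and Tcs6 had higher values on every mutant array than on either wild-type array, but did not pass the test over all transcripts. Its values were 12.276 on wild-type replicate 1 and 12.280 on wild-type replicate 3. On the mutant arrays they were 12.88, 13.05 and 13.81 for replicates 1, 2 and 3. The genotypes did not overlap, the wild-type arrays were almost equal, and mutant replicate 3 stood above the other mutant arrays. Wild-type arrays averaged 12.28 ± 0.00255 (SD, n = 2) and mutant arrays 13.25 ± 0.494 (SD, n = 3). The difference, mutant minus wild type, was 0.97 on the log2 scale with a 95% interval from 0.18 to 1.76, or 1.96-fold with an interval from 1.13 to 3.39. The unadjusted p was 0.0253 and the Benjamini-Hochberg adjusted p was 0.212 in limma, a linear model with moderated variances fitted to all 16637 transcripts at once. In the same model without moderation, the standard error was 0.368 rather than 0.314, with an unadjusted p of 0.0783 (adjusted p = 0.446). The unadjusted p below 0.05 and the interval above 0 thus rested on moderation. In RNA of whole larvae, a difference in the number of cells of a type and one in RNA per cell cannot be told apart.

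The transcript of PIG-M and its upstream frames overlapped between the genotypes, and a single mutant array set the sign of its difference. Its wild-type values were 12.94 and 13.13 on replicates 1 and 3. Its mutant values were 12.90, 13.11 and 13.95 on replicates 1, 2 and 3. Mutant replicates 1 and 2 lay close to the wild-type arrays, and mutant replicate 3 was the highest of the 5. Wild-type arrays averaged 13.03 ± 0.132 (SD, n = 2) and mutant arrays 13.32 ± 0.551 (SD, n = 3), and the difference was 0.29 with a 95% interval from -0.59 to 1.16 (limma adjusted p = 0.72). Without mutant replicate 3 the difference was -0.025 (limma adjusted p = 0.961). The interval covers folds from 0.665 to 2.24, so neither a moderate fall nor a doubling was distinguishable from no difference with these arrays.

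The transcript of CG12016 and Dpm2 was nearly level across all arrays. Its wild-type values were 11.93 and 12.01 on replicates 1 and 3. Its mutant values were 12.02, 12.04 and 11.99 on replicates 1, 2 and 3. The mutant arrays lay within 0.053 of each other, and the lowest of them was below the higher wild-type array, so the genotypes overlapped. Wild-type arrays averaged 11.97 ± 0.0538 (SD, n = 2) and mutant arrays 12.02 ± 0.0267 (SD, n = 3), which differed by 0.045 with a 95% interval from -0.34 to 0.43 (limma adjusted p = 0.905). In folds the interval reached from 0.791 to 1.35. Its residual SD of 0.038 was at the percentile 1.2 of all transcripts, and only 198 of the 16637 transcripts had one as small or smaller. Moderation, which draws each variance towards that of the other transcripts, raised its standard error from 0.035 to 0.152, so the interval is wider than these 5 values alone would give.

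**Figure D1:**
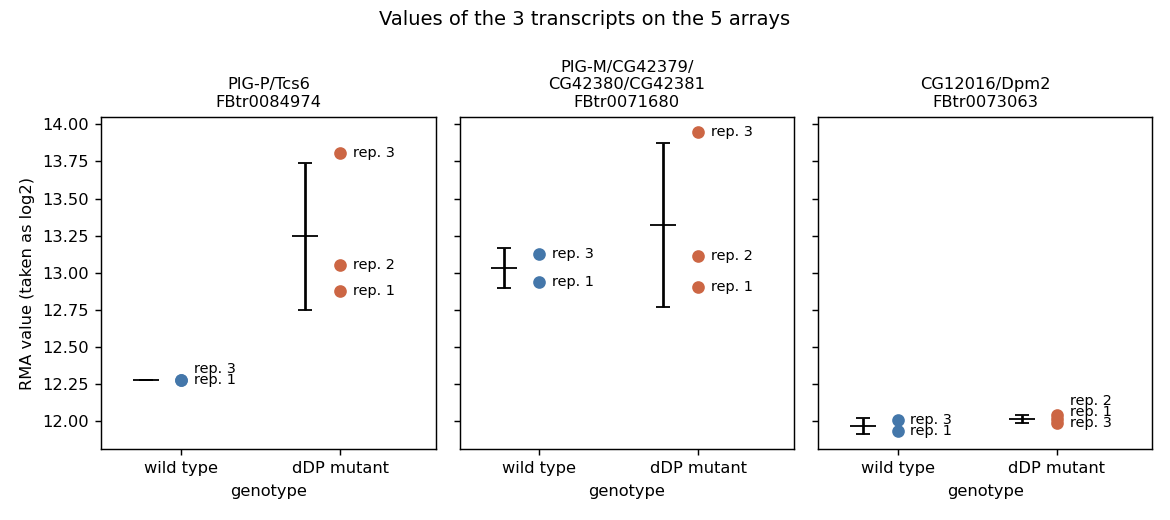
RMA values, taken as log2, of the transcripts of PIG-P, PIG-M and CG12016 with their shared genes, for each array of the wild type and the dDP mutant. Coloured points are arrays with their replicate number, and black bars are the mean and SD of each genotype (n = 2 and 3). The PIG-P points of the mutant, from 12.88 to 13.81, lie above both wild-type points, and the mutant replicate 3 point is the highest in the PIG-P and PIG-M panels but not in the CG12016 panel.

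In count, 0 of the 3 transcripts passed the limma test at an adjusted p of 0.05, against 1.63% of all transcripts in either direction. That share, 271 transcripts, depended on the arrays and the fit: it was 118 transcripts without mutant replicate 1, 0 after removal of any other single array (wild-type replicate 1 or 3, mutant replicate 2 or 3), 0 without moderation and 858 with the replicate block. At an unadjusted p below 0.05 there was 1 of 3, PIG-P, against 18.1% of all. The 3 mutant values exceeded both wild-type values for 1 of 3, again PIG-P, against 21.6% of all, and were below both for 0 of 3, against 18.1% of all. The 3 estimates were positive, except that CG12016 turned to -0.026 under cyclic loess normalisation and PIG-M to -0.025 without mutant replicate 3, and their median was 0.29, while the median over all transcripts was 0.01 and 50.9% of all estimates were positive. Counts of this size from 3 transcripts do not set them apart from the rest of the arrays.

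Within the whole distribution of differences, PIG-P stood towards the upper end and the others did not. Its difference was at the percentile 93.9 of all, with 1013 transcripts, or 6.09%, differing by as much or more in the higher direction. The differences of PIG-M and CG12016 were at the percentiles 75.4 and 54.0. Regardless of sign, the size of the CG12016 difference was at the percentile 9.8 and that of PIG-M at 50.6.

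**Figure D2:**
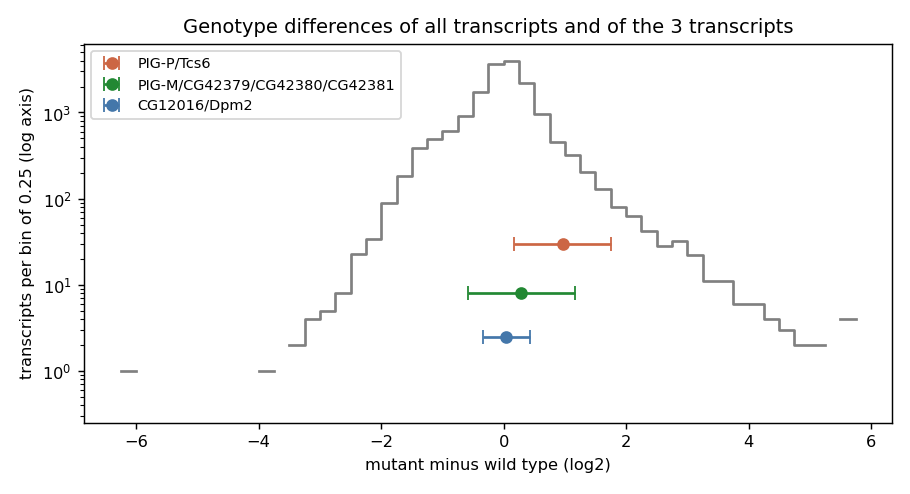
Number of transcripts per bin of 0.25 in the difference mutant minus wild type on the log2 scale (grey steps, log axis), with the estimates and 95% limma intervals of the 3 transcripts as coloured points and bars, whose height has no meaning. The PIG-P interval, from 0.18 to 1.76, lies above 0, and the intervals of PIG-M and CG12016 include 0.

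The signals of all 3 transcripts were above the median of each array, that of CG12016 only slightly. Probes differ between transcripts, so such signals give no order of abundance. Among the signals of its own array, the PIG-P value stood at the percentiles 60.8 and 60.7 in the wild type. It stood at 71.3, 75.9 and 88.5 on mutant replicates 1, 2 and 3. PIG-M was between the percentiles 73.3 and 77.2 in the wild type, and it stood at 71.8, 76.9 and 90.4 in the mutant. CG12016 kept between 54.9 and 56.8 on all 5 arrays. The position of PIG-P and PIG-M among the transcripts of mutant replicate 3 was thus the highest they had on any array.

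PIG-P and PIG-M varied alike among the mutant arrays, and differed from each other by a nearly constant amount. Relative to their own mutant means, the PIG-P values were -0.37, -0.19 and 0.56 on replicates 1, 2 and 3. The PIG-M values were -0.42, -0.21 and 0.62 on the same arrays. No array differed by more than 0.064 between the 2 transcripts in this measure. This likeness was noticed after the values were seen, and 64 of the other transcripts, or 0.385%, were at least as near to PIG-P by it. The same order of the mutant arrays, with replicate 1 lowest and replicate 3 highest, was found in 19.8% of all transcripts. CG12016 moved by only 0.001, 0.026 and -0.027 on those arrays.

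Mutant replicate 3 exceeded the highest of the other 4 arrays by 0.75 for PIG-P and by 0.82 for PIG-M. These gaps stood at the percentiles 97.6 and 98.1 of all transcripts, while mutant replicate 3 was the highest array for 29.7% of them. Limma's array weights estimate array quality from the spread within each genotype over all transcripts. Mutant replicate 3 had the lowest weight, 0.358, against 0.546 for mutant replicate 1, 1.80 for mutant replicate 2 and 1.69 for each wild-type array. The 2 wild-type arrays deviate equally from their mean, so their weights cannot differ. Array quality and differences among larvae cannot be told apart by these weights. With those weights in the fit, PIG-P differed by 0.84 (limma adjusted p = 0.0925) and PIG-M by 0.15 (limma adjusted p = 0.759). With mutant replicate 3 left out, PIG-P differed by 0.69 with a standard error of 0.145 (unadjusted p = 0.00973, limma adjusted p = 0.188), with both remaining mutant arrays still above the wild type.

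The genotype differences of the 3 transcripts were compared in pairs, by subtracting a transcript from another on each array. The probe effect of each transcript cancels when these values are compared between the genotypes. The PIG-P difference exceeded that of PIG-M by 0.68. By array, the excess over the wild-type mean lay between 0.62 and 0.73 on the mutant arrays (SD 0.0581, n = 3), and the wild-type arrays were 0.18 apart. The PIG-P difference exceeded that of CG12016 by 0.92, with mutant arrays from 0.55 to 1.51 above the wild-type mean and wild-type arrays 0.07 apart. In both pairs the genotypes did not overlap. Both contain PIG-P, whose own values did not overlap, so they are not separate results. How often other pairs of transcripts lack overlap was not computed. The PIG-M difference exceeded that of CG12016 by 0.24, with mutant arrays from -0.17 to 0.90 around the wild-type mean. An exact permutation test over the 10 splits of the arrays gave two-sided p-values of 0.2, 0.2 and 1 for the 3 pairs, adjusted over the pairs to 0.3, 0.3 and 1. With 2 and 3 arrays the smallest two-sided p this permutation test can give is 0.2, so it cannot show a difference at 0.05; no other test of the pairs was run.

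Few other genes of the pathway could be set beside them. Of 67 gene names in 10 lists on GPI anchor synthesis and remodelling, the GPI transamidase, dolichol and dolichol phosphate mannose synthesis, N-glycan assembly, O-mannosylation, KEOPS and nicotinamide nucleotides, 54 genes were found in the gene table. Of these, 6 were tied to a transcript of the arrays, through 4 transcripts, of which 3 are those described above. Of the GPI anchor lists only PIG-P and PIG-M were tied to a transcript, of the dolichol phosphate mannose synthase only Dpm2, and of the transamidase, remodelling, dolichol synthesis, N-glycan and O-mannosylation lists none. The remaining transcript, FBtr0091786, is shared by Tcs1, whose synonym is that of Sua5, the enzyme that prepares the threonylcarbamoyl group KEOPS transfers, and Polr3K, a subunit of RNA polymerase III. Its values were 11.81 and 11.55 on wild-type replicates 1 and 3, and 12.07, 11.84 and 12.20 on mutant replicates 1, 2 and 3. The mutant values exceeded both wild-type values, as for 21.6% of all transcripts, though the lowest was only slightly above the higher wild-type value. The difference was 0.36 with a 95% interval from -0.14 to 0.85 (limma adjusted p = 0.431). Of the 4 transcripts tied to the lists, 0 passed the test in either direction, against 1.63% of all transcripts. A count of 0 from so few does not set them apart.

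Transcripts with several genes were the larger part of those the gene table could name, 28 of 44, and these 3 are among them. Over the 28 the median difference was 0.17, with 18 higher and 10 lower in the mutant and 0 past the test. Over the 16 with a single gene it was 0.12, with 11 higher and 5 lower and 0 past the test. Over all transcripts, 50.9% of estimates were higher in the mutant and 1.63% passed the test, so counts of 0 do not set these lists apart. All mutant values exceeded both wild-type values for 11 of the 28 and 5 of the 16, against 21.6% of all transcripts. They were below both for 3 of the 28 and 1 of the 16, against 18.1% of all. A difference as large as that of PIG-P in the higher direction was found in 2 of the 28, or 7.14%, itself included, against 6.09% of all transcripts. The residual SDs of PIG-P and PIG-M, at 0.403 and 0.457, were above the median of the 28, which was 0.156, and above that of all transcripts, 0.278.

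Among the named transcripts, those most like each of the 3 were ranked by the correlation of their values over the 5 arrays, which share all arrays and include the genotype difference. PIG-P was most like the transcript of CG42516 and Pbp49, a subunit of the complex that starts transcription of small nuclear RNA genes, at r = 0.991. Next came the transcript of Mocs2A and Mocs2B, the subunits of molybdopterin synthase, at 0.967, and that of CG7071 and Muted, known in mammals as a subunit of a complex in lysosome-related organelle formation, at 0.947. The shape was alike but the size was not: the differences of these transcripts were 0.25, 0.20 and 0.30, with intervals that included 0. Of all transcripts, 54, 391 and 709 correlated with PIG-P at least as highly, or 0.325%, 2.35% and 4.26%.

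PIG-M was most like the transcript of CG30100 and CG42372 at r = 0.935, that of Mocs2A and Mocs2B at 0.931 and that of CG32573 and CG42512 at 0.922, with 497, 556 and 646 of all transcripts at least as high. These transcripts had their highest value on mutant replicate 3, which largely follows from their choice by correlation with PIG-M. Their differences were 0.26, 0.20 and 0.20. CG12016 was most like the transcript of CG42455 and vnc at 0.963, that of CG17325 and CG42305 at 0.820 and that of CG31917 and Tfb5, a subunit of the transcription factor TFIIH, at 0.814, with 36, 297 and 312 at least as high. Among themselves, PIG-P and PIG-M correlated at 0.813, PIG-P and CG12016 at 0.306, and PIG-M and CG12016 at -0.003, as a description over 5 arrays.

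**Figure D3:**
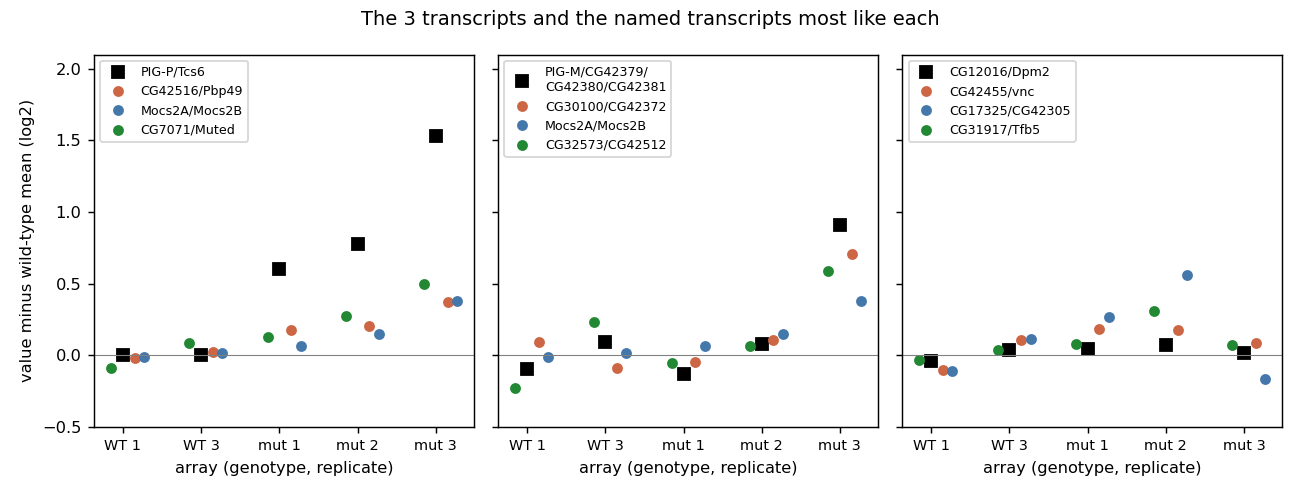
Value minus the wild-type mean, on the log2 scale, for each array (WT, wild type; mut, dDP mutant; number, replicate), with each of the 3 transcripts as black squares and the named transcripts most like it as coloured points, set slightly apart sideways. The PIG-P squares reach 1.53 on mutant replicate 3, above all transcripts most like it, and the CG12016 squares stay within 0.071 of the wild-type mean.

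The differences were recomputed under 14 other settings for each transcript. PIG-P stayed between 0.69 and 1.15, passed the adjusted threshold in none, and had an unadjusted limma p below 0.05 in 11. Its lowest adjusted p was 0.0925, with array weights, and without moderation its unadjusted p in the linear model was 0.0783. PIG-M lay between -0.025 and 0.50, and CG12016 between -0.026 and 0.083.

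**Figure D4:**
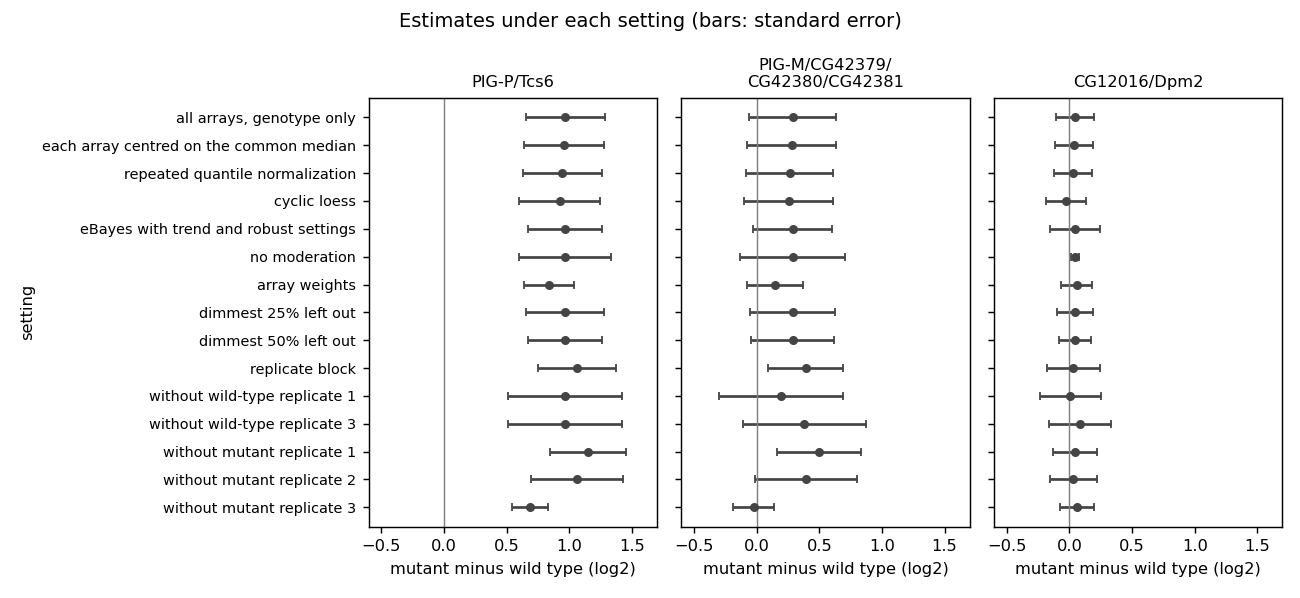
Difference mutant minus wild type on the log2 scale for each of the 3 transcripts under each setting, with bars of 1 standard error from limma. All PIG-P points lie at 0.69 or above, the PIG-M point falls to -0.025 without mutant replicate 3, and the CG12016 points stay close to 0.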

How the data were processed

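The authors deposited 1 log2 value per transcript and array, which the submitters' processing notes credit to RMA and the package oligo. That the values are log2 was inferred from the usual output of RMA and a maximum below 16; the base is not stated, and another base would change the folds but not the tests. RMA brings the distributions of the arrays close to each other (medians here from 11.64 to 11.69), so a change shared by most transcripts could be hidden. Build, annotation release and filters: not given in the sources used here. Depth does not apply to arrays, and their number limits the precision.

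Genes were tied to transcripts through the synonyms of the RefSeq gene table (Release 6 plus ISO1 MT), which named 44 of 16637 transcripts; other transcripts of the same genes may be on the arrays without a name, and no coordinates are printed because the array's build is unknown. The rule for named genes took the 3 transcripts, the 3 named transcripts most like each, and all list genes with a named transcript. The members and lists were chosen with earlier results of these data known.

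Differences were tested with limma 3.58.1 in R 4.3.3 (moderated by eBayes) on all 5 arrays and all transcripts, unfiltered, with genotype as the only term, 3 residual and 2.32 prior degrees of freedom, and Benjamini-Hochberg adjustment at 0.05. It was tested on simulated data. Pairs of transcripts were compared by exact permutation. Alternatives were other normalisations, variance settings, array weights, filters of dim transcripts, the replicate number as a block, a threshold of 0.1 and each array left out. Figures were drawn with matplotlib 3.10.9.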

Additional observations from a re-analysis of the deposited data

How the results depend on the processing

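None of the 3 transcripts passed the adjusted limma threshold of 0.05 in any of the 14 other settings. A threshold of 0.1 was applied to the main fit only, and none passed it there. With array weights, the limma adjusted p of PIG-P was 0.0925, which is below 0.1. Signs turned in 3 cases, from estimates of 0.287, 0.045 and 0.242 that had not passed a test: PIG-M gave -0.025 without mutant replicate 3, CG12016 gave -0.026 under cyclic loess, and the PIG-M difference minus that of CG12016 gave -0.084 without mutant replicate 3 (up to 0.451 with another array left out); the cause was not tested. With 1 array left out, PIG-P ranged from 0.69 to 1.15, PIG-M from -0.025 to 0.496 and CG12016 from 0.007 to 0.083. Without either wild-type array, PIG-P had unadjusted p-values of 0.0948 and 0.0939 in limma, where the lone wild-type array is assumed to vary like the mutant arrays. With the replicate block, which leaves 1 residual degree of freedom and takes nothing from mutant replicate 2, the differences were 1.06, 0.39 and 0.03 (adjusted p = 0.151, 0.516 and 0.949). Replicate numbers are not said to pair arrays. Deviations of same-numbered arrays correlated at 0.524 and 0.208, and those of wild-type replicate 3 and mutant replicate 2 at 0.403. The deviations of the 2 wild-type arrays mirror each other, so each mutant array correlates with them at opposite signs. These correlations therefore do not decide whether arrays were paired. The background of 271 called transcripts became 0 without moderation (2035 at an unadjusted p below 0.05), 683 with array weights, 53 without the dimmest 50%, 858 with the block and 617 at a threshold of 0.1, and ranged from 0 to 118 with 1 array left out. No floor of detection could be set, since background signals were not used here.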
